A study of Mus musculus with 4 samples.

Results

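The hypoxia response genes described here are 10 genes, Hif1a, Vegfa, Slc2a1, Bnip3, Egln3, Pdk1, Ankrd37, Adm, Car9 and Ndrg1, chosen by name, with earlier results of these data known. They were read on 4 Agilent 2-colour expression arrays from all 15 probes that carry these gene names, of 55681 probes on the array. Neural stem/progenitor cells (NSPCs) came from Slc:ICR mouse embryos of embryonic day 13.5, both genotypes being labelled with this strain, and grew in medium with B-27, EGF and FGF. Wild-type cells were compared with Trp53-/- cells, which come from crosses of mice with a disrupted allele of the p53 gene in the germline, on 2 arrays each. On each array, RNA of cells exposed to 20 μM PJ34, an inhibitor of poly(ADP-ribose) polymerases, carried the dye Cy5, and RNA of untreated cells of the same genotype carried Cy3. The oxygen level of the cultures and the length of the exposure behind these RNAs are not given in the sources used here. RNA was prepared independently for each replicate, but the embryos behind a preparation are not described, so the p-values measure the spread between these preparations.

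Cells sense oxygen through hypoxia-inducible factor (HIF). Its alpha subunit, encoded by Hif1a, is hydroxylated by prolyl hydroxylases when oxygen is present, bound by the von Hippel-Lindau protein and degraded. When oxygen is short, the alpha subunit persists, pairs with a beta subunit and binds the core hypoxia response element in promoters and enhancers of genes for vessel growth, glucose uptake, glycolysis, pH control and mitochondrial turnover. Neural progenitors of the embryonic brain live in low oxygen, and the pathway is known to act on their growth and differentiation.

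The letters of the core hypoxia response element were looked for near the listed starts of the members. Windows came from a RefSeq table of the mouse build GRCm38.p6, which gives 250 bases before and 50 bases from each start. The letters searched were ACGTG and GCGTG on both strands. Where the letters CACGTG occur, the motif overlaps its own reverse complement and counts on each strand. The table held 11 windows of 9 members and no entry for Ndrg1. Of these, 9 windows held the core motif, at least 1 for each of the 9 genes, beside 43.8% of all 32851 windows and 46.7% of all 27025 genes in the table. Bnip3 had 5 matches in its window, and 3.86% of all windows had 4 or more. The stretches below, on the strand of the gene, belong to the members whose levels differed most in the comparisons that follow and to Hif1a itself. Capitals mark the motif.
Vegfa, chr17:46025357-46025394, minus strand: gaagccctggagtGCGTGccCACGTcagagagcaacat
Pdk1, chr2:71873133-71873236, plus strand: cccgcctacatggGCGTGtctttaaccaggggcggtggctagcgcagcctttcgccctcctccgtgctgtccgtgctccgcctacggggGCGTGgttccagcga
Bnip3, chr7:138909524-138909636, minus strand: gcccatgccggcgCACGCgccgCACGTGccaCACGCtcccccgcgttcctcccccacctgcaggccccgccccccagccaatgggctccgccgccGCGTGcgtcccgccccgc
Adm, chr7:110627554-110627620, plus strand: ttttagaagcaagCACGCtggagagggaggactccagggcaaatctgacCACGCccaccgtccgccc
Hif1a, chr12:73907719-73907814, plus strand: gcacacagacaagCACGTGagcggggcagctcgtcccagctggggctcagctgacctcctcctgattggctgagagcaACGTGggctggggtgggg
The Vegfa stretch lies before the downstream of its 2 listed starts and so past the upstream start, whose own window held no match. A match is a run of letters and no measure of binding, which was not assayed.

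Of the 15 probes, 14 passed the filter on dim signals, so that all 10 genes could be tested. The probe left out was a second Hif1a probe, not well above background on any array. A gene was read from its brightest probe. The channels of the arrays had 21505 to 27156 probes with a signal well above background, and no spot was saturated. Trp53 itself, whose probe cannot be placed against the disrupted part of the gene from the sources used here, had untreated log2 levels of 8.28 and 8.49 in wild-type and 7.56 and 7.83 in Trp53-/- cells (q = 0.059), which checks the labels only weakly. The Y-linked genes Eif2s3y and Ddx3y were well above background in the control channel of both wild-type arrays and of neither Trp53-/- array. In the untreated comparison, genotype and the sex of the cultures therefore cannot be told apart. In Trp53-/- replicate 2 their PJ34 over control log2 ratios were 4.22 and 3.12, and that of Xist was -1.39, so the treated and untreated cells of this array differ in sex-linked transcripts. Counts of members and of pathway genes in Trp53-/- cells are given with and without this array.

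Untreated Trp53-/- NSPCs held more transcript of 3 of the 10 hypoxia response genes than untreated wild-type NSPCs. These were Ndrg1, at least 3.57-fold higher, Vegfa, 3.03-fold higher, and Pdk1, 2.30-fold higher. No member was lower at the threshold. Of the other 7, 6 had a higher mean in Trp53-/- cells and Hif1a a lower one, none past the threshold. The levels are log2 intensities of the Cy3 channel, normalized between arrays, so a difference of 1 is a 2-fold difference, and they were tested with limma's moderated test and Storey's q over all 27036 probes kept. On simulated data this test made more false calls than its q threshold allows, so q values near the threshold are to be read with that in mind.

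Vegfa encodes the growth factor that draws vessels towards tissue short of oxygen. Its untreated log2 level was 8.81 and 8.72 in the wild-type replicates and 10.36 and 10.37 in the Trp53-/- replicates. Both Trp53-/- values lay above both wild-type values by far more than replicates of a genotype differed, and the difference was 1.60 ± 0.16 (SE, n = 2 arrays per genotype, limma q = 0.0115). The brightest Vegfa probe lies at chr17:46154387-46154446 on build mm9. A second, dimmer Vegfa probe at chr17:46162376-46162435 gave levels of 7.11 and 7.45 against 8.56 and 8.52, and a difference of 1.26 ± 0.18 (SE, limma q = 0.0219). Both probes of the gene thus passed the threshold in the same direction.

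Ndrg1 is a stress-responsive gene of differentiating cells and of myelinating glia that hypoxia is known to induce. Its probe at chr15:66761057-66761116 (mm9) was not well above background in the control channel of either wild-type array, where it read 6.01 and 6.37, and was well above it on both Trp53-/- arrays, at 8.17 and 8.40. The groups did not overlap. The measured difference was 2.09 ± 0.20 (SE, limma q = 0.0112), and because the wild-type level is only a bound, the difference is given as at least 3.57-fold. That limit sets the mean of the Trp53-/- channel against the higher, on each wild-type array, of the probe's own signal and the lowest signal well above background.

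Pdk1 encodes a pyruvate dehydrogenase kinase, which keeps pyruvate out of the mitochondrial citric acid cycle. Its level was 6.94 and 6.81 in wild-type and 8.02 and 8.14 in Trp53-/- cells, again without overlap. The difference was 1.20 ± 0.16 (SE, limma q = 0.0192). Slc2a1 encodes the glucose transporter GLUT1 and Car9 a carbonic anhydrase of the cell surface that takes part in pH control. Slc2a1 read 10.14 and 9.44 in wild-type and 10.05 and 10.30 in Trp53-/- cells. Its groups overlapped, and the difference of 0.39 had a 95% confidence interval from -0.26 to 1.03. Car9 was not well above background in wild-type control channels (6.26 and 6.57) and was in those of Trp53-/- cells (6.91 and 6.95), at least 1.39-fold higher. Its measured difference of 0.52 had q = 0.0954 by limma and missed the threshold.

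Bnip3 encodes a mitochondrial protein that starts mitophagy. At its brightest probe it read 10.03 and 10.96 in the wild-type replicates and 11.68 and 11.75 in the Trp53-/- replicates. The groups did not overlap, but the wild-type replicates lay far apart, and the difference of 1.22 ± 0.31 (SE) had q = 0.0548 by limma. Its second probe, with 9.94 and 10.27 against 11.25 and 11.28, gave 1.16 ± 0.18 (SE, limma q = 0.0236). The third, dim Bnip3 probe differed by 0.28 (limma q = 0.205), so the 3 probes of this gene do not give 1 answer. Ankrd37, an ankyrin repeat protein whose transcript is a hypoxia marker, read 7.19 and 7.49 against 7.75 and 7.75 and missed the threshold (limma q = 0.137).

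Egln3 encodes a prolyl hydroxylase that marks the HIF alpha subunit and is itself a HIF target. Its level was 8.69 and 8.88 in wild-type and 9.33 and 9.43 in Trp53-/- cells, without overlap, and the difference of 0.60 ± 0.17 (SE) had q = 0.0666 by limma. Its dimmer probe differed by 0.73 (limma q = 0.0491). Adm encodes adrenomedullin, a peptide that widens vessels. It read 9.61 and 10.58 in wild-type and 10.86 and 10.699 in Trp53-/- cells, and the spread of the wild-type replicates left the difference of 0.68 with a 95% confidence interval from -0.10 to 1.47. Hif1a itself read 10.15 and 9.19 against 9.38 and 9.67. Both of its Trp53-/- values lay between the wild-type values, and the difference was -0.15 with a 95% confidence interval from -0.94 to 0.65.

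**Figure D1:**
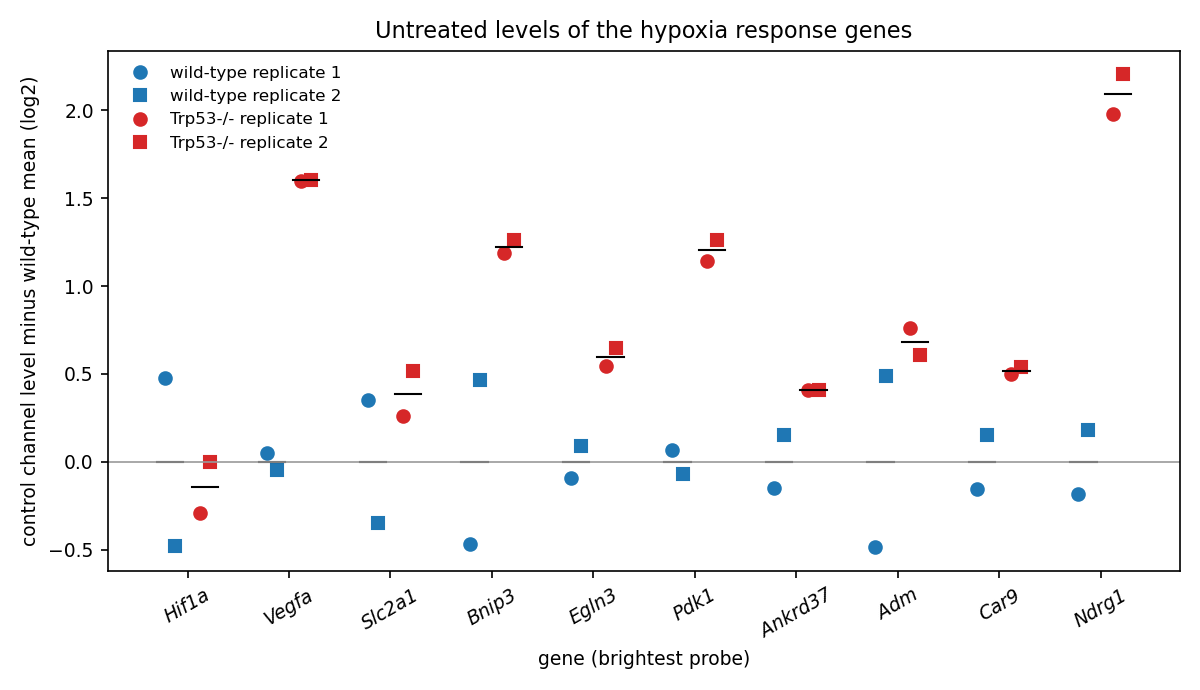
Untreated log2 level of each of the 10 genes on each array, as the difference from the wild-type mean of that gene (vertical axis, log2), with wild-type in blue, Trp53-/- in red and a black bar at each genotype mean (n = 2). Both Trp53-/- arrays lie above both wild-type arrays for 8 genes, by most for Ndrg1, Vegfa, Bnip3 and Pdk1, and the values overlap for Hif1a and Slc2a1.

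Counted by gene, 3 of 10 members were higher and 0 lower in untreated Trp53-/- cells at q below 0.05, where 3.34% of all probes kept were higher and 6.34% passed in either direction, and 6 members had an unadjusted p below 0.05. All 3 were also more than 2-fold higher, as were 1.72% of all probes. For 8 of 10 members both Trp53-/- values exceeded both wild-type values, which held for 28.7% of all probes. Car9 passed the filter on dim signals only through its Trp53-/- arrays, and the untreated wild-type level of Ndrg1 is only a bound. Of the 8 members well above background in both channels of all arrays, which leaves out these 2, 6 did not overlap, beside 29.2% of all such probes, and 2 were called, Vegfa and Pdk1. The median difference over all 10 was 0.64, and over all probes 0.01. The calls needed both Trp53-/- arrays: without Trp53-/- replicate 1 or without Trp53-/- replicate 2 the count fell to 0, with 4 members at an unadjusted p below 0.05 each time, although the differences themselves stayed between 1.55 and 1.65 for Vegfa, 1.91 and 2.28 for Ndrg1, and 1.13 and 1.27 for Pdk1. In those fits the lone array is taken to vary as the wild-type arrays do. Without wild-type replicate 1 all 10 differences were above 0, with a median of 0.62. Without wild-type replicate 2, 9 were above 0, with a median of 0.91, and Hif1a was below 0. The median over all probes was 0.01 in each of these 2 fits.

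The other genes of the pathway were read from lists, and their counts stand beside the same 3.34% of all probes. Of 18 HIF subunits and regulators, 1 was higher in untreated Trp53-/- cells, Cited2, which competes with HIF for a shared coactivator (1.16, limma q = 0.0337), and 0 were lower. Of 34 measured other HIF targets, 8 were higher and 0 lower. These were Flt1, a receptor for the Vegfa protein (2.63), Ppp1r3c, which steers glycogen synthesis (1.85), the neurite growth factor Nrn1 (1.53), the carbonic anhydrase Car12 (1.50), the repressor Bhlhe40 (1.18), the collagen hydroxylases P4ha1 (1.02) and P4ha2, and the nuclear receptor Rora (0.88). P4ha2 was not well above background in any wild-type channel and passed the filter only through its Trp53-/- arrays, where it was at least 1.60-fold higher. Its measured difference of 0.84 had q = 0.0323 by limma. Of the 27 other HIF targets well above background in both channels of all arrays, 6 were higher. Of 19 glycolysis genes, 4 were higher and 0 lower: the lactate exporter Slc16a3 (2.32), the enolase Eno2 (1.58), Pfkfb3, which makes the activator of phosphofructokinase (1.25), and the glucose transporter Slc2a3 (1.13). The medians of these 3 lists were 0.13, 0.36 and 0.37. As for the members, 0 genes of any of the 3 lists passed without Trp53-/- replicate 1 or without Trp53-/- replicate 2, by limma and q, an alternative chosen after seeing the data.

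**Figure D2:**
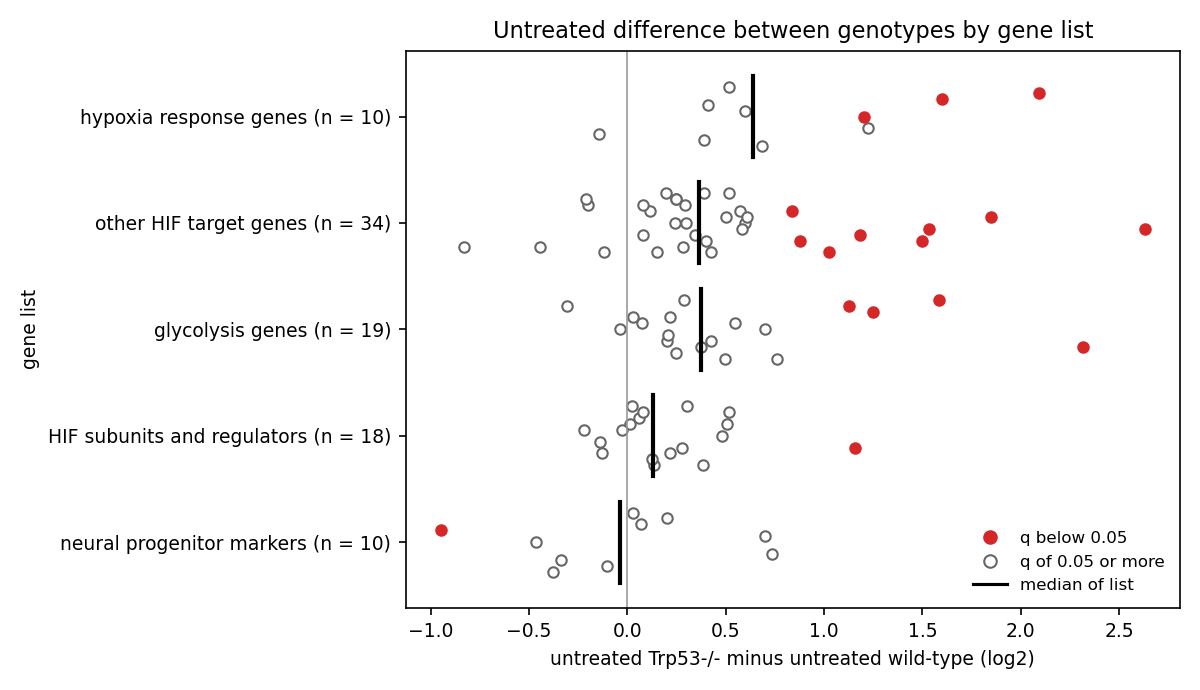
Untreated Trp53-/- minus untreated wild-type log2 level (horizontal axis) for each measured gene of 5 lists (rows), filled red where q was below 0.05, with a black line at the median of a list. The medians of the 10 hypoxia response genes, the 34 other HIF targets and the 19 glycolysis genes lie at 0.64, 0.36 and 0.37, and that of the 10 neural progenitor markers at -0.04.

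Markers of differentiated neural cells moved with genotype as well. At q below 0.05, the threshold of these counts, 3.34% of all probes kept were higher and 3% lower in untreated Trp53-/- cells. Of 6 oligodendrocyte markers 3 were higher, Mbp (1.99), Mag (1.59) and Mobp, and 0 were lower, with Mog at -0.40 (limma q = 0.123). Mobp was dim, with only 2 of the 4 control channels well above background. It read 5.81 and 6.21 in wild-type and 7.09 and 6.83 in Trp53-/- cells, so its difference is no measured size. Of 4 measured astrocyte markers 3 were higher, among them Gfap (2.38), while Aldh1l1 stood at -0.58 (limma q = 0.277). Gfap was well above background in 3 of the 4 control channels and read 6.44 on wild-type replicate 1, so its difference is no exact size. Of 8 neuron markers 3 were higher and 1 was lower. Of 10 neural progenitor markers 0 were higher and 1, Msi1, was lower. The summed log2 level of the oligodendrocyte markers was 10.8 and 11.5 in wild-type and 12.1 and 12.2 in Trp53-/- cells. The summed levels of progenitor markers were 17.4 and 17.03 against 17.1 and 17.1, those of neuron markers 13.4 and 12.96 against 12.9 and 12.95, and those of astrocyte markers 10.3 and 11.5 against 11.4 and 11.4. Of 7 endothelial and pericyte markers and of 7 microglia and blood markers, 1 each passed the filter, and Cdh5, Cldn5, Tek, Cx3cr1, Ptprc and Aif1 did not. The part of these markers in the differences of the hypoxia response genes was not tested, and a smaller share of a cell type cannot be told from less RNA per cell in bulk samples. Each array held RNA of 1 genotype only, so effects of an array cannot be told apart from those of its samples. The untreated genotypes also differed in Y-linked transcripts, and the part of this in the differences of the hypoxia response genes was not tested.

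PJ34 raised 1 of the 10 genes in wild-type NSPCs, Adm, by 1.74-fold, where 12.3% of all probes rose at q below 0.05. In Trp53-/- NSPCs Adm also rose, by 1.46-fold, and Bnip3, Vegfa and Ndrg1 fell. No member passed the 2-fold limit in either genotype, and for none did the response differ between genotypes at q below 0.05. The values are log2 ratios of PJ34 over control within an array. Because the dyes were not swapped, unequal labelling of a transcript by Cy5 and Cy3 cannot be told apart from the effect of PJ34 within a genotype, whereas it cancels in the difference between genotypes. The ratios of an array and its untreated levels share the control channel, so the comparisons are given side by side and none is read as support for another.

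Adm had log2 ratios of 0.93 and 0.67 in the wild-type replicates and 0.62 and 0.48 in the Trp53-/- replicates. All 4 arrays were above 0. The mean was 0.80 ± 0.10 in wild-type (SE, n = 2, limma q = 0.000382) and 0.55 ± 0.10 in Trp53-/- cells (SE, n = 2, limma q = 0.00304). The wild-type response stayed past the threshold under all 15 alternatives tried and the Trp53-/- response under 14, the exception being the scanner's own log ratios (limma q = 0.0592). The difference between genotypes was 0.25, with a 95% confidence interval from -0.06 to 0.56.

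Vegfa had ratios of 0.02 and 0.18 in wild-type and -0.19 and -0.51 in Trp53-/- cells. The genotypes did not overlap. In Trp53-/- cells Vegfa fell by 0.35 ± 0.10 on the log2 scale (SE, n = 2, limma q = 0.0239), and its second probe fell by 0.34 (limma q = 0.0260). Under PJ34 the Trp53-/- levels of 10.17 and 9.86 still lay above the wild-type levels of 8.83 and 8.90, a comparison that was not tested.

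Bnip3 had ratios of 0.04 and 0.31 in wild-type and -0.31 and -0.58 in Trp53-/- cells at its brightest probe, where it fell by 0.45 ± 0.11 (SE, n = 2, limma q = 0.0101). Its probes disagreed. The second probe had ratios of 0.33 and 0.65 in wild-type, where it rose by 0.49 (limma q = 0.00645), and of -0.02 and -0.27 in Trp53-/- cells, where it missed the threshold (limma q = 0.202). The third probe passed in neither genotype. The difference in response, wild-type minus Trp53-/-, was 0.62 at the brightest probe (limma q = 0.0668), 0.63 at the second (limma q = 0.0673) and -0.11 at the third (limma q = 0.620).

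Ndrg1 had ratios of 0.43 and 0.25 in wild-type and -0.10 and -0.75 in Trp53-/- cells. The 2 Trp53-/- arrays were both below 0 but far apart, and the gene fell by 0.42 ± 0.14 (SE, n = 2, limma q = 0.0322). In wild-type cells, where the control channel was not well above background, the PJ34 channel was at least 1.06-fold brighter, a bound that was not tested. The measured wild-type mean of 0.34 had q = 0.0614 by limma.

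The remaining members passed the threshold in neither genotype. Ankrd37 came nearest, with ratios of -0.22 and 0.06 in wild-type and -0.17 and -0.38 in Trp53-/- cells (limma q = 0.0507 in the latter). Hif1a, the regulator of the others, had -0.21 and -0.11 in wild-type and 0.05 and -0.07 in Trp53-/- cells, with 95% confidence intervals of the mean from -0.36 to 0.04 and from -0.21 to 0.19. Egln3, Slc2a1 and Pdk1 shared a pattern in which Trp53-/- replicate 2 stood lowest, at -0.38, -0.38 and -0.23, while their other 9 ratios lay between -0.10 and 0.18. Car9 was highest on that same array, at 0.42, and lay between -0.25 and 0.12 on the other three.

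**Figure D3:**
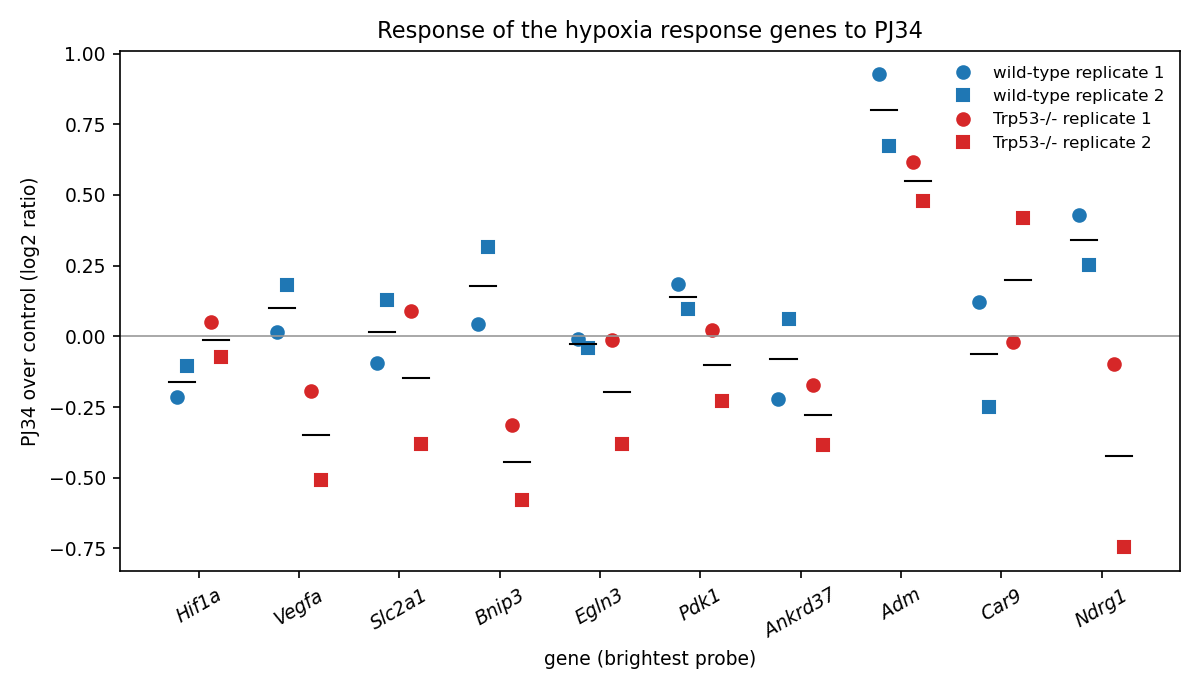
Log2 ratio of PJ34 over control (vertical axis) for each of the 10 genes on each array, with wild-type in blue, Trp53-/- in red and a black bar at each genotype mean (n = 2). Adm lies above 0 on all 4 arrays, and Vegfa, Bnip3 and Ndrg1 lie above 0 on both wild-type arrays and below 0 on both Trp53-/- arrays.

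In wild-type cells 1 member rose and 0 fell at q below 0.05, against 12.3% and 10.4% of all probes, and 2 had an unadjusted p below 0.05. In Trp53-/- cells 1 rose and 3 fell, against 12.0% and 9.68% of all probes. Of these decreases, that of Ndrg1 missed the threshold with an offset of 16 and with Benjamini-Hochberg adjustment in place of Storey's q. That of Bnip3 missed it with the mean of its probes, and all 3 missed it with the scanner's log ratios. With the 2-fold limit 0 members were called, beside 0.436% of all probes in wild-type and 0.318% in Trp53-/- cells. Without Trp53-/- replicate 2, the array whose channels differed in sex-linked transcripts, the 3 decreases were lost and Adm alone remained, with ratios on replicate 1 of -0.31 for Bnip3, -0.19 for Vegfa and -0.10 for Ndrg1. The part of the sex-linked difference in these decreases was not tested. Median centring in place of loess placed all probes at a median of 0.42 in wild-type and 0.57 in Trp53-/- cells, and the 3 genes with them above 0. Read relative to the median of all probes, all 3 stayed below 0, Ndrg1 at -0.41 (limma q = 0.00682), Bnip3 at -0.13 (limma q = 0.0994) and Vegfa at -0.11 (limma q = 0.116), so that Vegfa and Bnip3 missed the threshold, and the 2 members that were lower were Ankrd37 and Ndrg1.

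The difference in response, wild-type minus Trp53-/-, was 0.76 for Ndrg1 (limma q = 0.0764), 0.62 for Bnip3 (limma q = 0.0668) and 0.45 for Vegfa (limma q = 0.147). The wild-type ratio of Ndrg1 is only a bound, so its value is no measured size, and it ran from 0.18 with median centring to 1.12 with an offset of 16 and 2.28 with the scanner's log ratios. These 3 had an unadjusted p below 0.05, and 0 of 10 passed q below 0.05, against 1.46% of all probes. For the other 7 the difference lay between -0.26 and 0.25. Leaving out 1 array at a time gave between 0 and 2 members past the threshold, the 2 appearing without Trp53-/- replicate 1 and 1 without wild-type replicate 1.

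**Figure D4:**
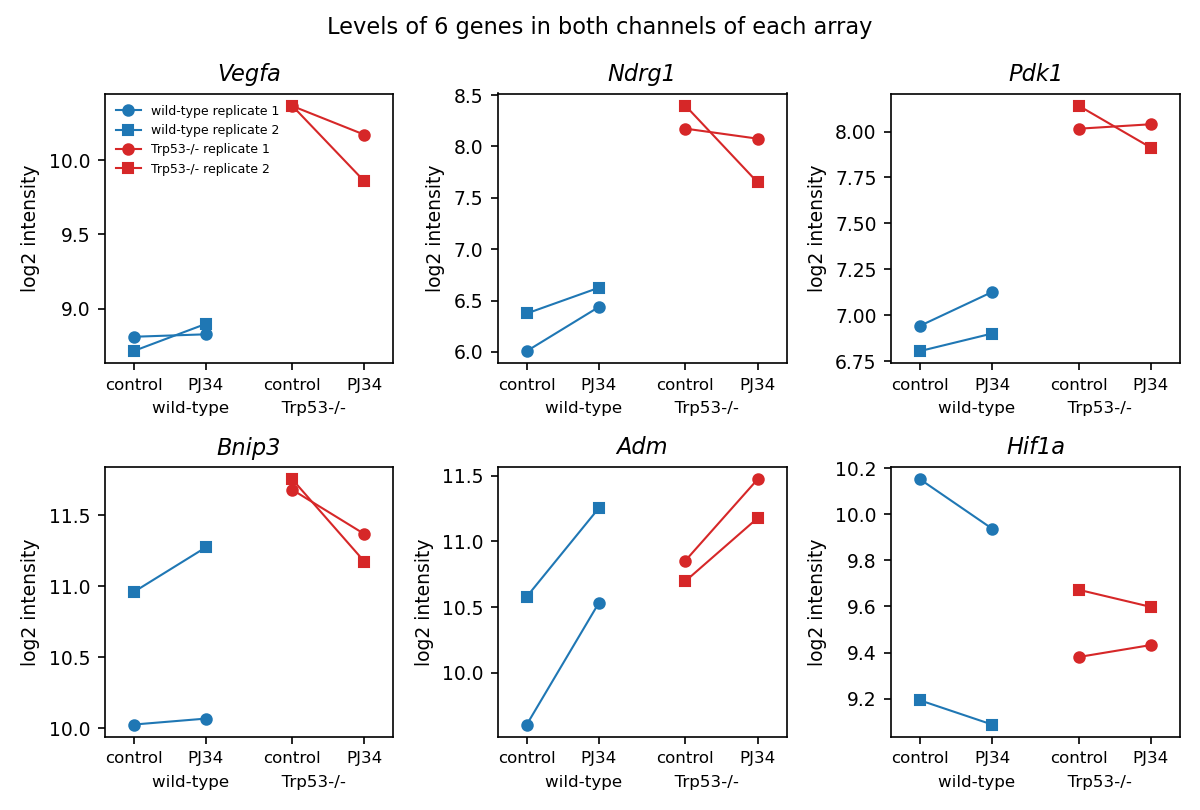
Log2 intensity (vertical axis, a scale of its own for each gene) of 6 genes in the control and PJ34 channels, a line joining both channels of an array, with wild-type in blue and Trp53-/- in red. For Vegfa, Ndrg1 and Pdk1 all Trp53-/- values lie above all wild-type values in both channels, Adm rises on all 4 arrays, and the genotypes of Hif1a overlap.

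Among other HIF targets, PJ34 raised 7 and lowered 5 of 34 genes in wild-type cells and raised 3 and lowered 9 in Trp53-/- cells, where 12.3% and 10.4% of all probes in wild-type and 12.0% and 9.68% in Trp53-/- cells rose and fell. Bnip3l, the mitophagy receptor related to Bnip3, rose in both genotypes, by 0.71 and 0.46, and so did the glycogen branching enzyme Gbe1, by 0.49 and 0.29. Insig2, which holds back sterol synthesis, rose in wild-type cells by 0.46 (limma q = 0.00411), with ratios of 0.41 and 0.51. Ppp1r3c fell in both, by 0.43 and 0.68, and Flt1 by 0.33 and 0.66. The secreted glycoprotein Stc2 fell in wild-type cells by 0.33. Angptl4, an inhibitor of lipoprotein lipase, rose in Trp53-/- cells (0.70), with 0.15 on replicate 1 and 1.25 on replicate 2. Ddit4, an inhibitor of mTOR signalling that HIF and p53 both induce, had ratios of 1.20 and 0.47 in wild-type and -0.80 and -0.81 in Trp53-/- cells. It rose in the former, fell in the latter, and its difference of 1.64 ± 0.20 (SE, limma q = 0.00447) passed the 2-fold limit, as did 0.399% of all probes in that direction. Of the 19 glycolysis genes 0 rose and 4 fell in wild-type cells, among them hexokinase 2 (Hk2, -0.60), Tpi1 (-0.52) and Aldoc (-0.40). In Trp53-/- cells Gapdh rose (0.33), and Eno2 (-0.61), Tpi1 (-0.52) and Slc16a3 (-0.53) fell. Of the 18 subunits and regulators 0 rose and 2 fell in wild-type cells, the chaperone Hsp90aa1 (-0.36) and Eloc (-0.29), and in Trp53-/- cells Ep300 (0.38) and Rack1 (0.28) rose and Hif3a (-0.54) fell. Hif3a was dim: no wild-type channel and only 1 Trp53-/- PJ34 channel was well above background. It passed the filter only through its Trp53-/- arrays, so its value is no measured size. Without Trp53-/- replicate 2, an alternative chosen after seeing the data, 0 other HIF targets rose and 7 fell in Trp53-/- cells, 0 glycolysis genes rose and 2 fell, and 1 regulator, Ep300, rose and 0 fell. Ppp1r3c (-0.65), Flt1 (-0.59), Ddit4 (-0.80), Tpi1 (-0.61) and Eno2 (-0.59) were still past the threshold in that fit, while Bnip3l (0.43), Gbe1 (0.35), Gapdh (0.29), Rack1 (0.37), Slc16a3 (-0.16) and Hif3a (-0.38) were not. The median ratio was 0.06 for the members, 0.05 for other HIF targets and -0.11 for glycolysis genes in wild-type cells, and -0.17, -0.10 and -0.05 in Trp53-/- cells, beside 0.03 for all probes in each genotype.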

How the data were processed

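NSPC RNA was measured on 4 Agilent SurePrint G3 Mouse GE arrays, Cy5 for PJ34 and Cy3 for control. The authors deposited Feature Extraction 10.7.3.1 output. The deposited intensity values are mean spot and median local background brightness in each colour, uncorrected. The deposited log10 ratios are the software's own background-subtracted, dye-normalized values and served as an alternative, as log2. Of the other deposited columns, flags for well-above-background, saturated and outlier spots were used. A table with 4 normalized columns was not used here because no column name matches an array.

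In limma 3.58.1 (R 4.3.3), normexp (offset 50), loess within arrays and averaging of a probe's spots gave the ratios. Dim probes were removed: both arrays of wild-type or both of Trp53-/- had to show a signal well above background in Cy3 or Cy5, which left 27036 of 55681 probes. A linear model of all 4 arrays, with 1 mean for each genotype, and empirical Bayes moderation gave p, and Storey's method q over all kept probes. Calls used q below 0.05, alone or with p below 0.05 and more than 2-fold. Untreated levels were Cy3 log2 values after the mean of both channels had been quantile-normalized between arrays (Aquantile), tested by genotype. Confidence intervals are 95%. Fits were tested on simulated data, where that of untreated levels made more false calls than its q threshold allows. Symbols came through RefSeq accessions for 26300 probes (47.2%), otherwise from the files. Named genes are all members and, of each pathway list, genes called with the 2-fold limit or the 3 with the smallest p per direction among q below 0.05, and a few others named where counted. The members and lists were chosen with earlier results of these data known. Alternatives covered background correction, normalization, filters, probe choice, adjustment, blocks and leaving out each array. The number of arrays limits the precision. 1 marker gene is not reported here, and its list was counted without it.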

Additional observations from a re-analysis of the deposited data

Results flagged for a closer look

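Among the 81 genes that are members or measured pathway genes, 3 responded differently to PJ34 in the 2 genotypes, by a test of the difference itself, beside 1.46% of all probes at q below 0.05. The wild-type minus Trp53-/- difference in log2 ratio was 1.64 for Ddit4 (limma q = 0.00447), 0.90 for Vldlr, a lipoprotein receptor of migrating neurons (limma q = 0.0334), and 0.74 for Eno2 (limma q = 0.0189). None of the 3 is one of the 10 hypoxia response genes. Vldlr had ratios of 0.79 and 0.26 in wild-type and -0.27 and -0.50 in Trp53-/- cells. Eno2 had 0.13 and 0.12 in wild-type and -0.59 and -0.62 in Trp53-/- cells. Without Trp53-/- replicate 2, the array whose channels differed in sex-linked transcripts, the differences were 1.63 for Ddit4 (limma q = 0.000507), 0.72 for Eno2 (limma q = 0.0440) and 0.79 for Vldlr (limma q = 0.0563), so that Vldlr missed the threshold, as it did without wild-type replicate 1 (0.64, limma q = 0.0703).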

How the results depend on the processing

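With 2 arrays per genotype and no dye swap, precision is set by the number of arrays, and dim members (Ndrg1, Car9) have only a bound in untreated wild-type cells. Of 582 estimates for single members under the alternatives, 34 changed sign, 25 of them with q above the threshold in both settings. The causes were not tested.

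Member counts at q below 0.05 for the wild-type response (1 in the report) were 2 with no background correction, 2 with the scanner's log ratios, 2 with an offset of 16, 8 with median centring and 3 relative to the median, and 1 to 2 leaving out 1 array. With the 2-fold limit (0), the scanner's ratios, median centring and its relative reading gave 1 each. Median centring put the median of all probes at 0.42 in wild-type and 0.57 in Trp53-/- cells, so its member counts hold a shift of all probes. The share of all probes called was not counted for these alternatives. For the Trp53-/- response (4), the scanner's ratios gave 0 (4 members with unadjusted p below 0.05), median centring 8 and, with the 2-fold limit, 1, and leaving out 1 array 1 to 5. For the difference (0), no filter gave 1 and leaving out 1 array 0 to 2, and 0 to 1 with the 2-fold limit. For untreated levels (3), the mean of a gene's probes gave 5, and leaving out 1 array 0 to 9, and 0 to 5 with the 2-fold limit.

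The labels do not say whether the replicate numbers pair the arrays. Deviations of same-numbered arrays correlated at -0.17 for ratios and 0.08 for untreated levels, which cannot decide this with so few arrays per genotype. With the number as a replicate block, the counts were 2 for the wild-type response, 4 for Trp53-/-, 1 for the difference and 4 for untreated levels. With the numbers crossed, an alternative chosen after seeing the data, they were 2, 5, 2 and 4.

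Under median centring the wild-type ratios turned to 0.40 for Hif1a, 0.50 for Egln3 and 0.24 for Ankrd37, and the Trp53-/- ratios to 0.76 for Hif1a, 0.46 for Vegfa, 0.66 for Slc2a1, 0.44 for Bnip3, 0.55 for Egln3, 0.47 for Pdk1, 0.20 for Ankrd37 and 0.16 for Ndrg1. The differences turned to -0.066 for Slc2a1, -0.044 for Egln3 and -0.12 for Pdk1. Relative to the median, wild-type ratios were 0.084 for Egln3, -0.069 for Pdk1 and -0.084 for Ndrg1, and Trp53-/- ratios 0.18 for Hif1a, 0.091 for Slc2a1 and -0.085 for Car9. The wild-type Slc2a1 ratio was -0.00098 with no background correction and -0.037 with the scanner's ratios, and that of Vegfa -0.0067 as a mean of its probes. Leaving out 1 array, signs turned for Ankrd37 (-0.22 to 0.061), Slc2a1 (-0.096 to 0.13) and Car9 (-0.25 to 0.12) in wild-type, for Hif1a (-0.074 to 0.052), Slc2a1 (-0.38 to 0.090), Pdk1 (-0.23 to 0.024) and Car9 (-0.020 to 0.42) in Trp53-/- cells, for the differences of Slc2a1 (-0.073 to 0.40) and Egln3 (-0.013 to 0.36), and for untreated Hif1a (-0.62 to 0.33).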
